A study of Sus scrofa with 12 samples.

Results

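The effect of N-carbamylglutamate (NCG) over both fiber levels was measured in RNA of sow endometrium, as the mean of the groups fed NCG minus the mean of the groups without it, with fiber kept as a second factor. All 12 libraries of the series enter this comparison, 6 on each side, and the genes described are those that passed the test together with gene lists chosen for their function. The sows were crossbred (Landrace × Yorkshire) and pregnant, and were fed for 114 days. Group L − N received a diet with 3.73% crude fiber, L + N the same diet with 0.05% NCG, H − N a diet with 7.46% crude fiber, and H + N that diet with 0.05% NCG. Each group had 3 libraries, named here by group and replicate number, such as L − N 1. The series' design text assigns 100 sows to each group, and nothing in the labels ties a library of one group to a library of another. The paper names sampling at the end of gestation from 6 sows per group. The labels do not say how the 3 libraries per group relate to those animals, so the p-values measure the spread between libraries.

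NCG is a stable analog of N-acetylglutamate, the cofactor that activates carbamoyl phosphate synthetase in mitochondria of the gut and liver, and through it the synthesis of citrulline and arginine. Arginine is the substrate of nitric oxide synthases and, by way of ornithine, of polyamines, and it is sensed by the mTORC1 kinase complex that governs cell growth. The endometrium is the inner layer of the uterus, made of luminal and glandular epithelium, stroma, vessels and immune cells, and in the pig it stays apposed to the placenta until birth without being invaded by it. A cell that divides copies its DNA, condenses its chromosomes with condensin, holds the copies together with cohesin, and moves them apart on a spindle built from centrosomes, with kinesin motors and with kinetochores as the points of attachment.

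All values are CPM, counts scaled to a common library size with the TMM factors of edgeR, and all fold changes are on the log2 scale with their standard error (SE). Each adjusted p comes from the quasi-likelihood test of edgeR, adjusted by Benjamini-Hochberg over the 15351 genes that passed the filter on low counts. A gene is said to have risen or fallen where its adjusted p was under 0.05, and to be differentially expressed where its log2 fold change was also above 1 or below −1. Total counts ran from 14369781 to 18549636 without NCG and from 14701681 to 19309724 with NCG. The fit had 8 residual degrees of freedom. L − N 2 and L − N 3 stood apart on the first principal component, which held 26.7% of the variance, at −67.2 and −65.5, with all other libraries at −22.6 or above. Calls that turn on a single library are given with and without it. Defining markers of endometrium were present. EPCAM of epithelium had a mean of 291 CPM without and 227 CPM with NCG, and PDGFRA of stroma 644 and 862 CPM, while the lowest library had 97.9 CPM of the endothelial CDH5. In bulk RNA, fewer cells of a type and less RNA per cell cannot be told apart.

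With NCG, 256 genes were differentially expressed and higher, 1.67% of the genes tested, and 20 were lower, 0.13%. By adjusted p alone 870 genes rose, 5.67% of those tested, and 246 fell, 1.6%. At an unadjusted p under 0.05, 2028 of the 15351 genes were higher and 1600 lower. Counts without adjustment in the gene lists are to be read beside these. The median log2 fold change over all genes was −0.03 after TMM scaling, which centres the genes, so all changes are relative to that centre. Of the differentially expressed genes that were higher, 253 had the same direction on both diets, and in 164 all 6 libraries with NCG lay above all 6 without, a pattern seen in 3.22% of all genes tested. The 20 lower genes had the same direction on both diets, and 4 of them separated fully, against 0.769% of all genes. Without L + N 2, and also without H − N 1, the number of differentially expressed genes was 157 (150 and 143 higher). The gene with the smallest adjusted p was CEP135.

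The difference was larger on the low-fiber diet in 237 of the 256 higher genes. Their median log2 fold change was 1.61 between L + N and L − N and 0.83 between H + N and H − N. Of the 246 genes that fell by adjusted p alone, 229 had the same direction on both diets. In 222 of these 246 the change was larger on the low-fiber diet, with medians of −0.60 and −0.23. These medians carry no test, because the genes were chosen on the mean of both. Within the diets, 613 genes were differentially expressed on the low-fiber diet, a number that fell to 143 without L − N 3, to 183 without L + N 2 and to 384 without L + N 3. There were 0 on the high-fiber diet, where the smallest adjusted p was 0.451 by edgeR, 1331 genes had an unadjusted p under 0.05, DESeq2 called 25 and limma-voom 0. The interaction tests whether NCG acts differently on the diets, and 0 genes passed in edgeR (smallest adjusted p = 0.182, 1967 genes with an unadjusted p under 0.05) and in limma-voom, while 298 passed in DESeq2. Without L − N 1, edgeR counted 437 genes past the interaction test, and without H − N 3 it counted 1. A difference between the diets is therefore not shown for the named genes by the test used here.

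**Figure D1:**
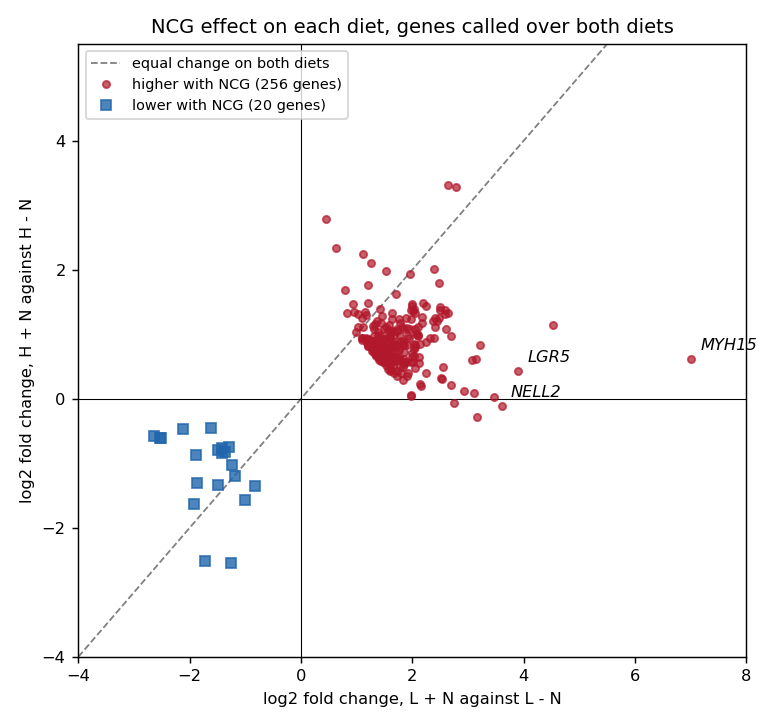
Each point is a gene that was differentially expressed over both diets (256 higher in red, 20 lower in blue), with its log2 fold change for NCG on the low-fiber diet (horizontal axis) and on the high-fiber diet (vertical axis). Most points lie below the dashed line of equal change, 237 of the higher genes among them, and the position of MYH15 is fitted against 3 libraries with 0 counts.

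Many genes of chromosome segregation were higher with NCG. Of 46 kinetochore and spindle checkpoint genes tested, 24 rose and 0 fell (0 also at an unadjusted p under 0.05), with a median log2 fold change of 0.76. Of 25 condensin, cohesin and SMC5/6 genes, 17 rose, and the median was 0.82. Of 40 mitotic kinesins and spindle proteins, 25 rose and 0 fell (0 also without adjustment), with a median of 0.92. DESeq2 and limma-voom also called 0 falls in both lists, and in those for centrioles, DNA replication, repair and histones described further on. The shares that rose, 52.2%, 68.0% and 62.5%, stand beside 5.67% of all genes. The kinetochore count was 15 without L − N 3, 14 without L + N 2 and 14 without H − N 1, while the other lists kept at least 13 and 19 whichever library was left out.

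At the kinetochore, SGO2 (shugoshin, which protects cohesin at the centromere; gene 100522763, chromosome 15, 104099378 to 104150723 on Sscrofa11.1) had a lowest, median and highest level of 1.21, 2.51 and 3.95 CPM without NCG and of 7.39, 8.61 and 15.1 CPM with NCG. The groups did not overlap, and the log2 fold change was 1.95 (SE 0.242, edgeR's adjusted p = 0.00578). KNL1, the scaffold that recruits checkpoint kinases, ranged from 0.891 to 5.59 CPM without and from 6.63 to 16.8 CPM with NCG, a log2 fold change of 1.94 (SE 0.411, edgeR's adjusted p = 0.0183). CENPF, a protein of the outer kinetochore, had medians of 12.1 and 31.4 CPM and a log2 fold change of 1.79 (SE 0.269, edgeR's adjusted p = 0.00585). BUB1B, a checkpoint component, had medians of 15.0 and 29.4 CPM and a log2 fold change of 1.22 (SE 0.208, edgeR's adjusted p = 0.00901). For KNL1, CENPF and BUB1B, too, each library with NCG was above each library without.

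SMC4, the core ATPase subunit shared by both condensins (gene 100152361, chromosome 13, 100078149 to 100120907), stood at 10.1, 14.7 and 21.5 CPM (lowest, median, highest) without NCG and at 36.1, 49.0 and 63.2 CPM with it. The lowest library with NCG was thus above the highest without, and the log2 fold change was 1.69 (SE 0.188, edgeR's adjusted p = 0.00578). SMC4 overlaps TRIM59 on the opposite strand, and since the strand setting of the counting is not given in the sources used here, reads of the pair may be shared. SMC3, the cohesin counterpart, rose by a log2 fold change of 1.13 (SE 0.154, edgeR's adjusted p = 0.00578), from a median of 43.8 to 96.3 CPM. PDS5B, which regulates the binding of cohesin, rose by 0.98 (SE 0.122, edgeR's adjusted p = 0.00578). The only member of this list that fell was NSMCE1, a subunit of the SMC5/6 complex, with a log2 fold change of −0.32 (SE 0.0882, edgeR's adjusted p = 0.0489), and this call was lost in 10 of the 12 fits that left out 1 library.

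On the spindle, HMMR (a microtubule-binding protein and hyaluronan receptor; gene 100515063, chromosome 16, 60290684 to 60332411) stood at 1.21, 2.64 and 4.51 CPM without NCG and at 8.42, 11.07 and 16.7 CPM with it. The libraries did not overlap, and the log2 fold change was 2.14 (SE 0.289, edgeR's adjusted p = 0.00578). HMMR overlaps NUDCD2 on the opposite strand. KIF11, the motor that pushes the spindle poles apart (gene 100526080, chromosome 14, 104125839 to 104177381), had 3.12, 8.67 and 17.4 CPM without and 24.5, 30.5 and 38.4 CPM with NCG. Its log2 fold change was 1.85 (SE 0.271, edgeR's adjusted p = 0.00578). DLGAP5, a spindle assembly factor with an uncharacterised locus on its other strand, had a log2 fold change of 1.87 (SE 0.256, edgeR's adjusted p = 0.00578). HAUS6, a subunit of the augmin complex that branches microtubules, had a log2 fold change of 0.91 (SE 0.127, edgeR's adjusted p = 0.00578), below the fold threshold.

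Motors that carry cargo outside mitosis served as a comparison. Of 26 transport kinesins and dynein subunits, 2 rose and 0 fell (4 in each direction at an unadjusted p under 0.05; 0 fell in limma-voom and 2 in DESeq2), with a median log2 fold change of 0.01 that became −0.13 with an offset for gene length. The share that rose was 7.69%, beside 5.67% of all genes. The genes that rose were KIF3A, a motor of ciliary transport that overlaps RAD50, with a log2 fold change of 1.02 (SE 0.147, edgeR's adjusted p = 0.00578), and KIF21A, with 0.88 (SE 0.187, edgeR's adjusted p = 0.0183; 0.0514 without L − N 3).

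**Figure D2:**
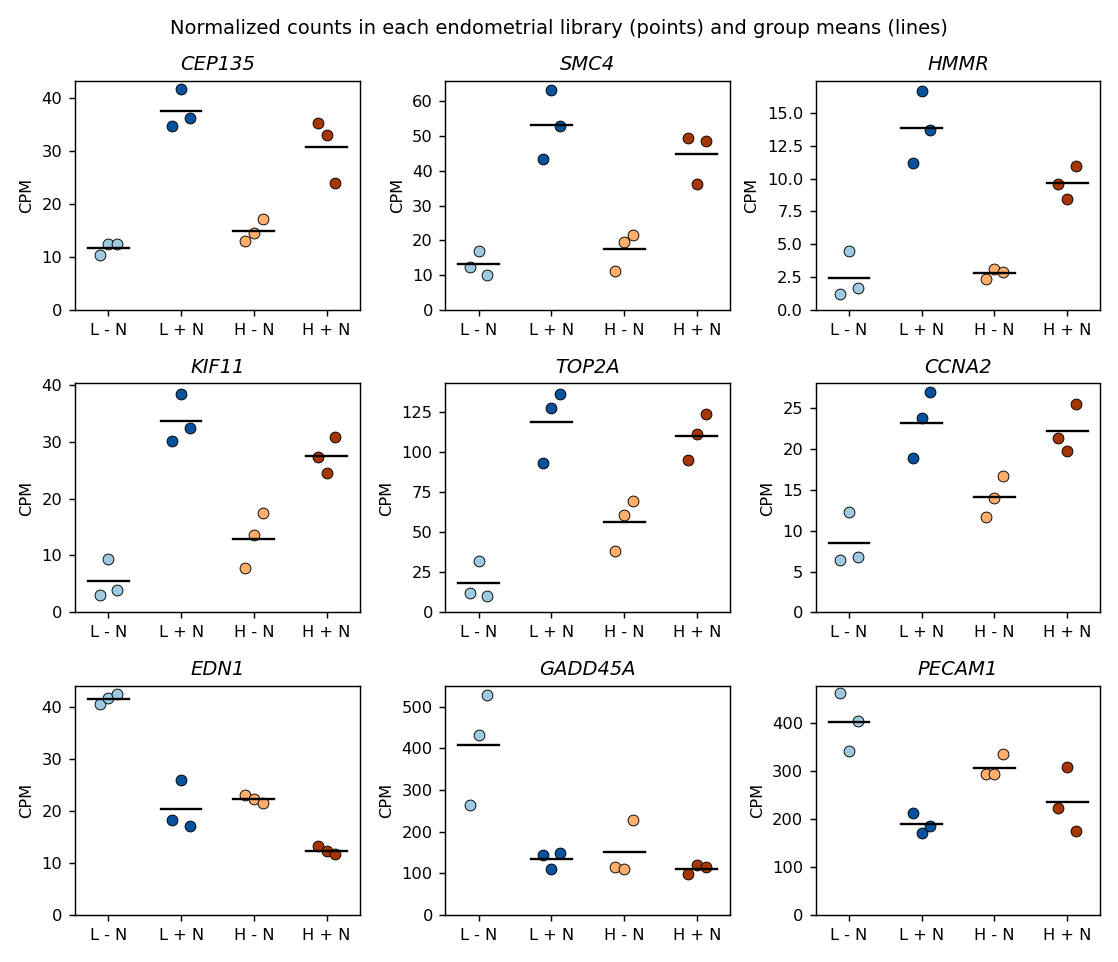
Normalized counts (CPM, vertical axes from 0) of 9 genes in the 4 groups, 3 libraries per group as points and the group mean as a line. CEP135, SMC4, HMMR, KIF11, TOP2A and CCNA2 were higher in every library with NCG than in every library without, while EDN1, GADD45A and PECAM1 were lower on average and overlapped between the sides.

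Of 45 centriole and centrosome genes, 22 rose and 0 fell (0 also at an unadjusted p under 0.05), with a median log2 fold change of 0.58. The share that rose was 48.9%, beside 5.67% of all genes. CEP135, needed to build the centriole cartwheel (gene 100627819, chromosome 8, 55250902 to 55323396), stood at 10.3, 12.7 and 17.1 CPM without NCG and at 23.9, 35.1 and 41.7 CPM with NCG. Its log2 fold change was 1.36 (SE 0.125, edgeR's adjusted p = 0.00380), with 1.68 on the low-fiber and 1.05 on the high-fiber diet. PCM1, the scaffold of the granules around centrosomes, had 44.6, 52.7 and 79.3 CPM without and 111, 119.9 and 165 CPM with NCG, a log2 fold change of 1.11 (SE 0.143, edgeR's adjusted p = 0.00578). CEP162, a protein of the ciliary base, rose by a log2 fold change of 1.11 (SE 0.159, edgeR's adjusted p = 0.00578).

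Of 56 DNA replication genes tested, 13 rose and 0 fell (29 and 0 at an unadjusted p under 0.05), with a median log2 fold change of 0.38. Those that rose were 23.2% of the list, beside 5.67% of all genes. The number that rose was 6 without L − N 3, L + N 2, L + N 3, H − N 1 or H + N 3, 7 without L − N 1 or H − N 3, and 20 without L − N 2 or in DESeq2. TOP2A, the topoisomerase that untangles replicated chromosomes (gene 396917, chromosome 12, 22001300 to 22028452), had 10.5, 35.4 and 69.4 CPM without NCG and 92.9, 118 and 136 CPM with NCG. Its log2 fold change was 1.83 (SE 0.267, edgeR's adjusted p = 0.00578). ATAD5, which unloads the replication clamp and overlaps TEFM, had a log2 fold change of 1.09 (SE 0.183, edgeR's adjusted p = 0.00846), and ORC4, of the origin recognition complex, had 0.79 (SE 0.132, edgeR's adjusted p = 0.00836).

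Of 40 genes of homologous repair and the Fanconi pathway, 17 rose and 0 fell (0 also at an unadjusted p under 0.05), with a median log2 fold change of 0.57. Those that rose were 42.5% of the list, beside 5.67% of all genes. Their number was 8 without L + N 2, 9 without L − N 3, and 10 without L + N 3, H − N 1 or H + N 3. FANCM, a DNA translocase (gene 100155917, chromosome 1, 175333965 to 175402065), stood at 1.21, 2.57 and 2.91 CPM without and at 4.94, 5.96 and 8.44 CPM with NCG. The libraries did not overlap, and the log2 fold change was 1.55 (SE 0.204, edgeR's adjusted p = 0.00578), but FANCM overlaps another gene on the opposite strand. ATM, the kinase that signals double-strand breaks, had a log2 fold change of 0.81 (SE 0.10, edgeR's adjusted p = 0.00578). BRCA1, which overlaps NBR1, had 0.99 (SE 0.133, edgeR's adjusted p = 0.00578).

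Of 53 cyclins and regulators of the cell cycle, 21 rose and 0 fell, with a median log2 fold change of 0.62. The share that rose was 39.6%, beside 5.67% of all genes. At an unadjusted p under 0.05, 34 rose and 1 fell, while by adjusted p limma-voom called 0 falls and DESeq2 1. The number that rose in edgeR was 11 to 13 without L − N 3, L + N 2, L + N 3, H − N 1, H − N 2, H + N 1 or H + N 3. CCNA2, the cyclin of S and G2 phase (gene 100415929, chromosome 8, 102260346 to 102266274, overlapping EXOSC9), had 6.43, 11.97 and 16.6 CPM without and 18.9, 22.5 and 26.9 CPM with NCG. Its log2 fold change was 1.05 (SE 0.183, edgeR's adjusted p = 0.00959). FBXO5, an inhibitor of the anaphase-promoting complex, had a log2 fold change of 0.91 (SE 0.151, edgeR's adjusted p = 0.00816). The member with the smallest p was RB1, which restrains entry into S phase, at 0.47 (SE 0.0752, edgeR's adjusted p = 0.00715), so the list holds a brake on division as well as its drivers.

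Of 25 inhibitors of the cycle and targets of p53, 0 rose (0 also at an unadjusted p under 0.05, and 0 in limma-voom and DESeq2), beside 5.67% of all genes. In a list of this size, 0 rises is near that share. Among the same 25, 1 gene fell, 4% beside 1.6% of all genes. That gene was GADD45A, a stress-induced growth arrest gene (gene 733669, chromosome 6, 144940702 to 144944089), at 111, 246 and 528 CPM without NCG and 97.1, 117 and 148 CPM with it. The sides overlapped, and the log2 fold change was −1.03 (SE 0.213, edgeR's adjusted p = 0.0169). GADD45A stood at 265 to 528 CPM in L − N and 109 to 148 in L + N, while H − N (111 to 228) and H + N (97.1 to 120) overlapped. Of 12 genes of histone regulation and chromatin assembly, 5 rose, 41.7% beside 5.67% of all genes, and 0 fell (0 also without adjustment). Among them, CASP8AP2, needed for histone transcription, had a log2 fold change of 1.11 (SE 0.153, edgeR's adjusted p = 0.00578), HELLS, a chromatin remodeler, had 1.14 (SE 0.198, edgeR's adjusted p = 0.00950), and SUZ12, a Polycomb subunit that overlaps CRLF3, had 0.74 (SE 0.138, edgeR's adjusted p = 0.0115).

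**Figure D3:**
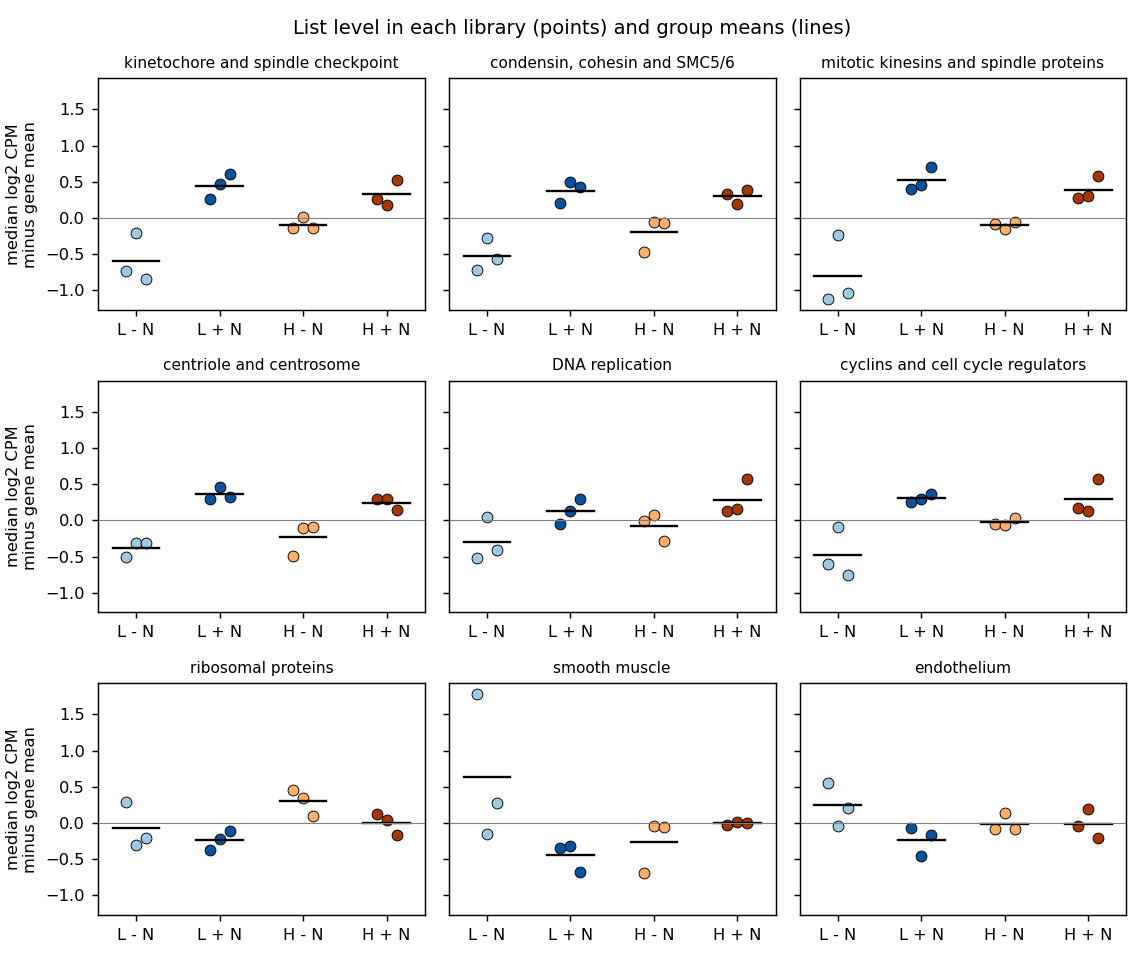
For 9 gene lists, the level in each library is the median over the members of log2 CPM minus the gene's mean over the 12 libraries (vertical axis), with points for libraries and lines for group means. In the lists for kinetochore, condensin, mitotic kinesins, centriole and cyclins the libraries with NCG lie above those without, while for DNA replication, ribosomal proteins, smooth muscle and endothelium the sides overlap. L − N 1 and L − N 3 lie lowest in the lists for kinetochore, condensin, mitotic kinesins and cyclins, and L − N 1 stands apart in smooth muscle at 1.78.

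**Figure D4:**
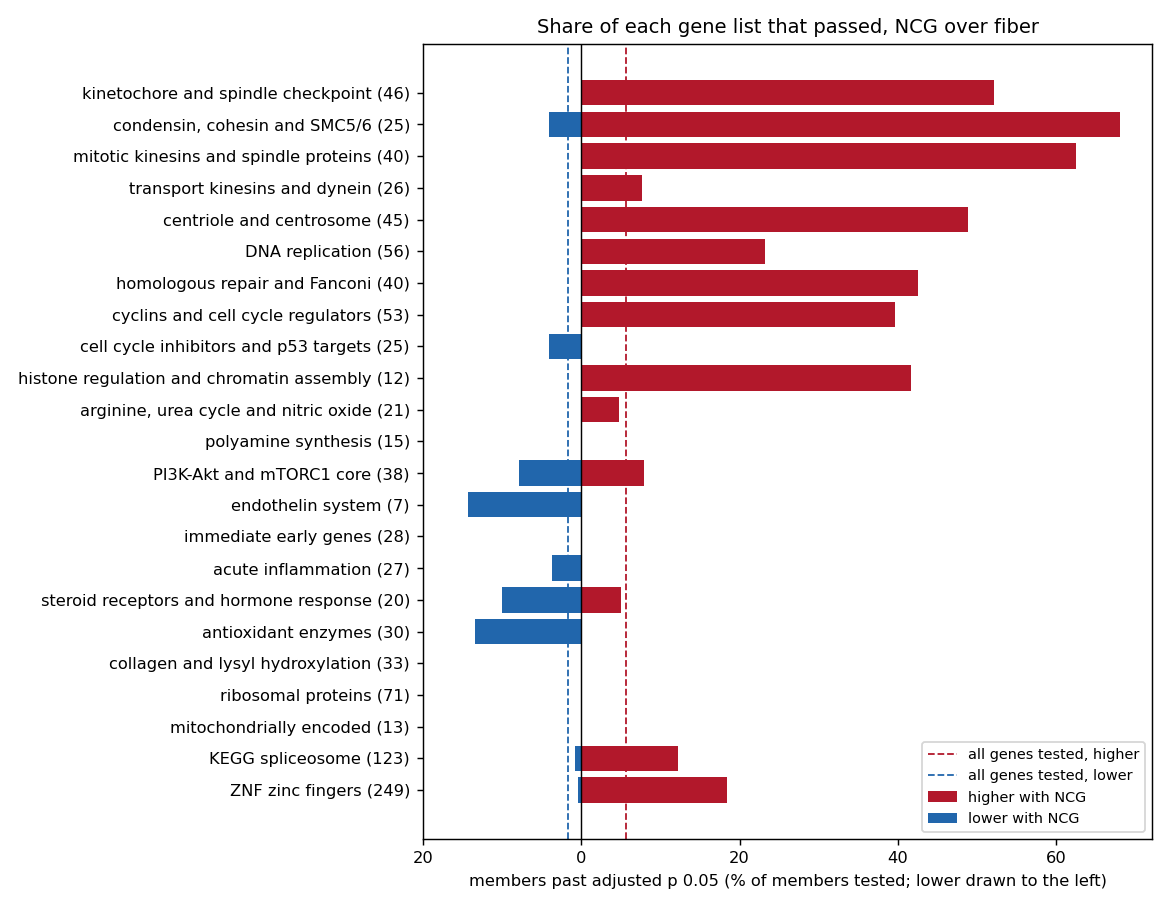
Share of the tested members of each list (number in brackets) that rose with NCG (red, to the right) or fell (blue, to the left) at an adjusted p under 0.05, in percent, with dashed lines at 5.67% and 1.6% for all genes tested. The lists of chromosome segregation reach 52.2% to 68.0%, DNA replication 23.2%, and arginine metabolism 4.76%.

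Among the 12 differentially expressed higher genes of smallest p, several belong to RNA processing. TRA2A, a splicing regulator of the SR family (gene 768110, chromosome 9, 92299171 to 92323789), had 100.2, 111 and 159.8 CPM without and 197, 251 and 307 CPM with NCG, a log2 fold change of 1.08 (SE 0.128, edgeR's adjusted p = 0.00578). PNISR, an SR-related nuclear speckle protein, had 1.15 (SE 0.140), SREK1, another SR-related splicing protein, had 1.07 (SE 0.136), and PRPF39, a U1 snRNP factor, had 1.12 (SE 0.149), each with edgeR's adjusted p = 0.00578. In these genes, too, all libraries with NCG lay above all without. Over the 123 spliceosome genes of the deposited KEGG annotation, a list added after the calls had been seen, 15 rose, 1 fell and the median log2 fold change was −0.02. The shares were 12.2% and 0.81%, beside 5.67% and 1.6% of all genes. U2SURP, of the U2 snRNP, rose by 1.01 (SE 0.146, edgeR's adjusted p = 0.00578), and SF3B1, the branch point protein that overlaps COQ10B, rose by 0.68 (SE 0.107, edgeR's adjusted p = 0.00708) from a median of 649 to 1035 CPM. DHX38, a helicase that overlaps PMFBP1, fell by 0.24 (SE 0.0638, edgeR's adjusted p = 0.0423), and this was lost in 10 of the 12 fits that left out 1 library.

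Zinc finger genes of the ZNF type, also listed after the calls had been seen, included 46 that rose and 1 that fell among 249. The shares were 18.5% and 0.40%, beside 5.67% and 1.6% of all genes. The median log2 fold change of these zinc finger genes was 0.11. Without L + N 2 or H + N 1 the count was 28, and without L − N 3 it was 30. ZNF518A, which overlaps BLNK, had a log2 fold change of 1.46 (SE 0.191), ZNF292 had 1.37 (SE 0.187) and ZNF280C had 0.85 (SE 0.110), each with edgeR's adjusted p = 0.00578 and without overlap of the sides. The one that fell, ZNF697, had −0.39 (SE 0.0902, edgeR's adjusted p = 0.0254), which was lost in 7 of the 12 fits that left out 1 library. Among the remaining genes of those 12, G2E3, a ubiquitin ligase that varies over the cell cycle, had a log2 fold change of 1.02 (SE 0.128), and KPNA5, an importin that overlaps ZUFSP, had 1.16 (SE 0.157), each with edgeR's adjusted p = 0.00578.

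The genes with the largest fold changes and full separation were, besides HMMR, KNL1, SGO2, DLGAP5 and KIF11, the following. MKRN3, an imprinted gene for a ubiquitin ligase, had 0.311, 1.10 and 1.63 CPM without and 2.15, 3.57 and 8.33 CPM with NCG, a log2 fold change of 2.20 (SE 0.489, edgeR's adjusted p = 0.0225). Its adjusted p was 0.0573 without H + N 1, 0.0619 without L + N 2 and 0.0627 without L − N 3. DEPDC1, a cell division gene, had a log2 fold change of 1.98 (SE 0.369, edgeR's adjusted p = 0.0117). SLC12A1, a sodium-potassium-chloride cotransporter known from the kidney that overlaps CTXN2, was low on both sides, at 0.127 to 0.416 CPM without and 0.791 to 2.39 CPM with NCG, and had 1.84 (SE 0.382, edgeR's adjusted p = 0.0170).

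Enzymes nearest to the known action of NCG were at or near the limit of detection. CPS1, the carbamoyl phosphate synthetase that NCG activates in liver and gut, had at most 9 counts in any library, and NAGS, which makes N-acetylglutamate, at most 3, so neither passed the filter. Of 21 genes of arginine, the urea cycle and nitric oxide that were tested, 1 rose and 0 fell, 4.76% against 5.67% of all genes for rises; at an unadjusted p under 0.05 there were 1 and 3, and DESeq2 and limma-voom also called 0 falls. The median log2 fold change was −0.16. With 1 library left out, the rise was lost in 10 of the 12 fits, and with an offset for gene length 0 rose. ASS1, which makes argininosuccinate, stood at 3.94, 9.96 and 17.8 CPM without and 6.25, 7.75 and 11.5 CPM with NCG (log2 fold change −0.35, SE 0.325, edgeR's adjusted p = 0.541). NOS3, the endothelial nitric oxide synthase, had a log2 fold change of −0.23 (SE 0.222, edgeR's adjusted p = 0.570), and ARG2, the mitochondrial arginase, −0.04 (SE 0.131, edgeR's adjusted p = 0.886). Among 15 polyamine genes, 0 rose and 0 fell in edgeR and limma-voom, 2 fell at an unadjusted p under 0.05, and DESeq2 called 2 falls.

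In the core of PI3K-Akt and mTORC1 signaling, 3 of 38 genes rose and 3 fell, with a median log2 fold change of −0.12. Each share was 7.89%, beside 5.67% of all genes for rises and 1.6% for falls. Only 1 rose without L − N 3, L + N 2 or H + N 1, 2 rose without some of the others, and 6 fell without H + N 3. PIK3CA, the catalytic subunit of PI3-kinase that overlaps an uncharacterised locus, ranged from 20.9 to 48.0 CPM without and from 53.1 to 79.5 CPM with NCG, a log2 fold change of 0.73 (SE 0.181, edgeR's adjusted p = 0.0344), and the call was lost in 7 of the 12 fits that left out 1 library and with an offset for gene length. RICTOR, of mTORC2, rose by 0.84 (SE 0.182, edgeR's adjusted p = 0.0201; 0.0519 without H + N 1, 0.0532 without L + N 2 and 0.0531 without L − N 3). DDIT4, an inhibitor of mTORC1 induced by stress, fell by 0.56 (SE 0.0781, edgeR's adjusted p = 0.00578) from a median of 92.1 to 61.8 CPM. PDK1, a symbol that officially stands for a pyruvate dehydrogenase kinase and not for the kinase upstream of Akt, fell by 0.46 (SE 0.0900, edgeR's adjusted p = 0.0136), so 2 of the 3 falls are of pathway members. PDK1 stood at 78.3 to 102 CPM in L − N and 44.4 to 54.0 in L + N, while H − N (53.7 to 56.6) and H + N (47.3 to 56.8) overlapped. FOXO1, a factor that Akt restrains, fell by 0.29 (SE 0.0715, edgeR's adjusted p = 0.0337), a call lost in 8 of the 12 fits that left out 1 library. The FOXO1 libraries with and without NCG separated on the low-fiber diet, at 139 to 149 CPM in L − N and 90.5 to 92.6 in L + N. On the high-fiber diet H − N (91.9 to 104 CPM) and H + N (90.5 to 110 CPM) overlapped. AKT1, which overlaps an uncharacterised locus, had a log2 fold change of −0.27 (SE 0.0931, edgeR's adjusted p = 0.112).

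Of the endothelin system, which constricts vessels, 1 of 7 genes fell, 14.3% beside 1.6% of all genes. EDN1, the ligand endothelin-1 (gene 396915, chromosome 7, 8752018 to 8758354), stood at 40.5, 41.8 and 42.5 CPM in L − N, at 18.2, 26.0 and 17.1 in L + N, at 23.2, 22.4 and 21.6 in H − N, and at 13.2, 12.2 and 11.7 in H + N. Within each diet the groups did not overlap, and over both the log2 fold change was −0.94 (SE 0.111, edgeR's adjusted p = 0.00578), just short of the fold threshold, with −1.02 on the low-fiber and −0.86 on the high-fiber diet. The call held in all 12 fits that left out 1 library. Its receptors had log2 fold changes of −0.06 for EDNRA (SE 0.169, edgeR's adjusted p = 0.847) and −0.24 for EDNRB (SE 0.188, edgeR's adjusted p = 0.477). ECE1, the enzyme that makes the active peptide, had −0.48 (SE 0.172, edgeR's adjusted p = 0.121).

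Of the 20 lower genes, GADD45A, GPX3 and SOD3 belonged to a list. SMPDL3B, a phosphodiesterase of the plasma membrane (gene 100514109, chromosome 6, 85060639 to 85084483), stood at 14.4, 19.8 and 25.3 CPM without and at 7.10, 8.86 and 12.9 CPM with NCG, a log2 fold change of −1.09 (SE 0.155, edgeR's adjusted p = 0.00578) with separate libraries. GALNT15, a glycosyltransferase, fell from a median of 25.2 to 7.09 CPM (log2 fold change −1.56, SE 0.287, edgeR's adjusted p = 0.0114). ACKR1, a chemokine-binding receptor of venules, fell from 56.7 to 25.0 CPM (−1.09, SE 0.215, edgeR's adjusted p = 0.0149), and F13A1, a subunit of coagulation factor XIII that macrophages make, fell from 143 to 50.6 CPM (−1.41, SE 0.288, edgeR's adjusted p = 0.0166). FAM19A5, a secreted protein gene, had −1.78 (SE 0.366, edgeR's adjusted p = 0.0169). These genes overlapped between the sides, apart from SMPDL3B. Also lower were RBP4, the retinol carrier, AVPR1A, a vasopressin receptor, PGLYRP2, a peptidoglycan-degrading amidase, STEAP3, a metalloreductase, and ADM5, CLVS1, HRCT1, FRMD1, SERPINA11 and RGS6, with log2 fold changes from −2.12 to −1.02; RBP4 overlaps PDE6C and CLVS1 overlaps ASPH.

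Leaving out each library in turn left 7 of the 19 lower genes named here past the adjusted p of 0.05 in all 12 fits, namely SMPDL3B, GALNT15, ACKR1, F13A1, FAM19A5, GADD45A and an uncharacterised gene, LOC102161418 (log2 fold change −1.38). ADM5 was lost without L + N 2 (edgeR's adjusted p = 0.0507), and STEAP3 without H + N 1 (0.0603), L + N 2 (0.0613) or L + N 3 (0.0592). The other 10 genes were lost in 5 to 10 of the 12 fits, with edgeR's adjusted p up to 0.119. In limma-voom AVPR1A, FRMD1, HRCT1, PGLYRP2, RBP4, RGS6 and SERPINA11 did not pass. The number of lower genes was 7 without L + N 2, 8 without L + N 3, 9 without L + N 1 or H + N 1, 10 without L − N 3, 13 without H + N 3 and 33 without L − N 1.

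Of 30 antioxidant enzymes 4 fell, 13.3% against 1.6% of all genes, and 0 rose, with a median log2 fold change of −0.22; 1 rose and 13 fell at an unadjusted p under 0.05, and DESeq2 and limma-voom called 0 rises and 9 and 4 falls. GPX3, the secreted glutathione peroxidase, had 8.65, 22.9 and 64.4 CPM without and 3.36, 7.30 and 15.5 CPM with NCG (log2 fold change −1.62, SE 0.379, edgeR's adjusted p = 0.0280). SOD3, the extracellular superoxide dismutase, fell by 1.09 (SE 0.271, edgeR's adjusted p = 0.0350). SOD1, the cytosolic form, which overlaps SCAF4, ranged from 55.8 to 72.5 CPM without and from 42.8 to 54.1 CPM with NCG and fell by 0.33 (SE 0.0836, edgeR's adjusted p = 0.0376). PRDX5, a peroxiredoxin, fell by 0.39 (SE 0.106, edgeR's adjusted p = 0.0499). PRDX5 stood at 63.5 to 73.1 CPM in L − N and 32.6 to 49.8 in L + N, while H − N (41.6 to 49.7) and H + N (43.2 to 47.9) overlapped. With 1 library left out, between 0 and 3 members fell, and GPX3 was lost in 5, SOD3 in 9, SOD1 in 9 and PRDX5 in 11 of the 12 fits. With an offset for gene length 1 member fell, and the median was −0.14.

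Of 20 steroid receptors and hormone response genes, 1 rose and 2 fell, 5% and 10% beside 5.67% and 1.6% of all genes. ESR1, the estrogen receptor alpha, stood at 409.8, 545 and 939 CPM without and at 770.0, 934 and 1281 CPM with NCG, a log2 fold change of 0.68 (SE 0.153, edgeR's adjusted p = 0.0233). It was lost without H + N 1 (0.0601), L + N 2 (0.0618), L + N 3 (0.0639) and L − N 3 (0.0644). With an offset for gene length the log2 fold change of ESR1 was 0.45 (edgeR's adjusted p = 0.151), and 0 members of the list rose. FKBP5, a chaperone induced by glucocorticoids and progestins, fell by 0.51 (SE 0.103, edgeR's adjusted p = 0.0160) from a median of 119 to 85.0 CPM, and FOXO1 was the other. FKBP5 stood at 135 to 178 CPM in L − N and 71.7 to 96.4 in L + N, while H − N (86.4 to 102) and H + N (77.5 to 91.0) overlapped. Among 27 genes of acute inflammation 0 rose and 1 fell, 0% and 3.70% beside 5.67% and 1.6% of all genes. In a list of this size both counts are near those shares. The fall was in the haptoglobin gene HP (−0.88, SE 0.211, edgeR's adjusted p = 0.0309). It was lost in 8 of the 12 fits that left out 1 library and with an offset for gene length. At an unadjusted p under 0.05 there were 1 and 5. DESeq2 called 1 rise and 2 falls, and limma-voom 0 rises and 1 fall.

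Other lists gave 0 calls in edgeR and limma-voom. Among 28 immediate early genes, 3 rose and 1 fell at an unadjusted p under 0.05, and DESeq2 called 3 rises. Over all 15351 genes tested, 2028 were higher and 1600 lower without adjustment, so the immediate early counts do not exceed those shares. EGR1 had a log2 fold change of 0.54 (SE 0.168, edgeR's adjusted p = 0.0751). Among 33 collagen and lysyl hydroxylation genes the unadjusted counts were 1 and 5, and DESeq2 called 2 falls. The 71 ribosomal protein genes had 0 and 17 without adjustment and 0 in DESeq2, and their median log2 fold change was −0.23, or −0.09 with an offset for gene length. The 13 mitochondrially encoded genes had 1 and 0 without adjustment, 0 in DESeq2, and a median of 0.12.

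Markers of the cell types in the endometrium gave few calls. Over all genes 5.67% rose and 1.6% fell, shares at which lists this short can hold 0 calls. Epithelial markers gave 0 calls among 16 genes tested (1 lower without adjustment), macrophage markers 0 of 16 (2 lower), neutrophil markers 0 of 10, T and NK cell markers 0 of 15 (1 higher), and B and plasma cell markers 0 of 13 (1 higher and 1 lower), mast cell markers 0 of 5 (1 lower), red blood cell markers 0 of 4 (1 lower) and trophoblast markers 0 of 5. For these lists limma-voom called 0, and DESeq2 called 1 macrophage marker lower and 1 B and plasma cell marker higher. Of the red blood cell, trophoblast and mast cell lists, 5 or fewer genes passed the filter. Only 2 of the 16 epithelial markers had a log2 fold change above 0, and their median was −0.23. That median was 0.05 on the low-fiber and −0.48 on the high-fiber diet. Among 15 endothelial markers 1 fell, PECAM1, an adhesion molecule of endothelial junctions, at 293, 337 and 462 CPM without and 170.2, 199 and 307 CPM with NCG (log2 fold change −0.74, SE 0.138, edgeR's adjusted p = 0.0118). This single fall is 6.67% of the endothelial markers, beside 1.6% of all genes. CDH5, the endothelial cadherin, had −0.39 (SE 0.126, edgeR's adjusted p = 0.0882), and the summed endothelial markers ranged from 1451 to 2122 CPM without and from 1119 to 1660 CPM with NCG.

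Of 14 stromal markers 1 rose, HOXA10, a homeobox gene of the uterus, at 76.1, 121 and 209 CPM without and 173, 262 and 363 CPM with NCG (log2 fold change 1.08, SE 0.181, edgeR's adjusted p = 0.00836). Of 19 ciliated cell markers 1 rose, CCDC39, an axoneme assembly gene that overlaps TTC14 (log2 fold change 1.83, SE 0.340, edgeR's adjusted p = 0.0115). Smooth muscle markers gave 0 calls among 12 in edgeR and limma-voom and 1 fall in DESeq2, with 6 lower without adjustment and a median log2 fold change of −0.60. On the low-fiber diet that median was −1.36 and on the high-fiber diet 0.17, and the summed markers ranged from 1458 to 7032 CPM without and from 1889 to 2526 CPM with NCG. Macrophage markers had medians of −0.97 and 0.31 on the low-fiber and high-fiber diets, with L − N 2 and L − N 3, the libraries apart on the first principal component, at 1.22 and 1.20 in their median deviation and all others at 0.30 or below. Neutrophil markers had medians of 1.12 and −1.85 on the low-fiber and high-fiber diets, and the red blood cell markers −3.04 and 1.66. In the neutrophil list H − N 3 stood apart at a median deviation of 2.75, with H − N 1 at −0.36 and H − N 2 at −1.45. The single rises are 7.14% of the stromal and 5.26% of the ciliated cell markers, beside 5.67% of all genes. The part of the cell type markers in the results for division genes was not tested.

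The largest differences between the diets among the differentially expressed genes were in MYH15, NELL2 and LGR5, none past the interaction test. MYH15, a myosin heavy chain that overlaps HHLA2, had 0 counts in all L − N libraries and was at least 4.99-fold higher in L + N, taking 3 counts per library as the floor, while H − N and H + N stood at 0.328 and 0.504 CPM. LGR5, a receptor for R-spondins that overlaps TSPAN8, stood at 0.955, 2.01 and 1.28 CPM in L − N, at 23.1, 11.5 and 29.4 in L + N, at 48.1, 37.3 and 19.2 in H − N, and at 66.0, 8.96 and 66.9 in H + N. NELL2, a secreted glycoprotein, stood at 17.6, 14.6 and 8.06 CPM in L − N, at 147, 136 and 208 in L + N, at 249.9, 173 and 31.4 in H − N, and at 168, 157 and 96.4 in H + N. For both, L − N was the low group and the others overlapped. The interaction had edgeR's adjusted p = 0.257 for LGR5 and 0.253 for NELL2. Over both diets, the log2 fold changes were 2.17 for LGR5 (SE 0.478, edgeR's adjusted p = 0.0214; 0.0541 without H + N 1, 0.0614 without L − N 3, 0.141 in an additive fit of fiber and NCG without their interaction and 0.195 in limma-voom) and 1.75 for NELL2 (SE 0.404, edgeR's adjusted p = 0.0264), the latter lost without H + N 1 (0.0682), L + N 2 (0.0558), L + N 3 (0.0637) or L − N 3 (0.0702) and in the additive fit (0.221). MYH15 was not past the threshold in DESeq2 or in the additive fit.

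The calls were unevenly spread over gene length. In the shortest decile of the genes tested 0.974% rose and 2.34% fell, and in the longest decile 14.4% rose and 0.326% fell. The median length was 5677 bases for the differentially expressed genes that were higher and 2326.5 bases for those that were lower. In the libraries themselves, the longest decile of genes took 9.27% to 9.91% of all counts without NCG and 10.5% to 11.4% with NCG, 9.52% ± 0.241 against 10.9% ± 0.324 (SD, n = 6 each; exact permutation test, two-sided, p = 0.00216, the smallest that 924 splits allow). The shortest decile took 12.4% to 14.3% and 11.5% to 12.9% (exact permutation test, two-sided, p = 0.0130). Both permutation tests split the 12 libraries without regard to fiber. Length moved with NCG in these libraries, and its part in the results was not tested.

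Calls among the division genes were counted by length as well. Taking the lists of kinetochore, condensin, mitotic kinesins and cyclins together, 35 of 81 genes shorter than the median length rose (median log2 fold change 0.66), against 169 of all 7676 genes of that length (median −0.09). Among longer genes, 52 of 83 rose (median 0.87), against 701 of 7675 (median 0.05). With an offset for gene length in the fit, 198 genes were differentially expressed and higher and 16 lower. In that fit, 25 of 46 kinetochore genes, 16 of 25 condensin and cohesin genes, 26 of 40 mitotic kinesins and spindle proteins and 21 of 45 centriole genes rose, and the zinc finger count was 38 of 249 with a median log2 fold change of 0.03.

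**Figure D5:**
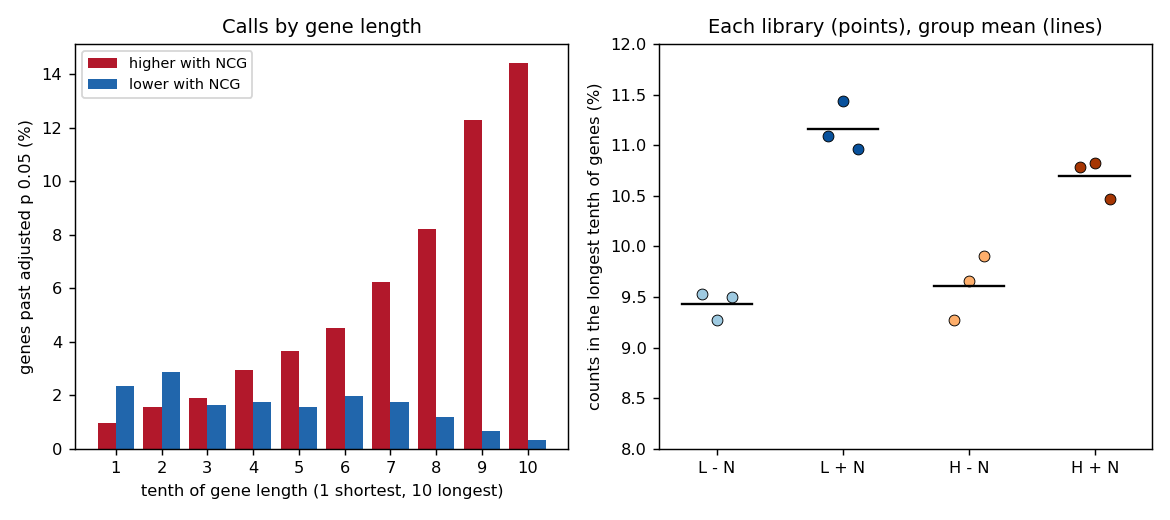
Left, percentage of genes past an adjusted p of 0.05 in each decile of gene length, higher (red) and lower (blue) with NCG. Right, percentage of each library's counts in the longest decile of genes (points, with group means as lines; the axis starts at 8%), where all libraries with NCG (10.5% to 11.4%) lie above all libraries without (9.27% to 9.91%).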

How the data were processed

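RNA-seq libraries of endometrium from 4 groups were compared. The authors sequenced poly(A) RNA, with a strand-specific kit per the paper, and the submitters' processing notes name fastp 0.22.0, HISAT2 2.1.0 and HTSeq 0.9.1; the strand setting of the counting is not given in the sources used here. The deposited table holds, for 20674 genes of Sscrofa11.1, the raw read counts per library and the FPKM that the authors made from them. The FPKM values differed from counts divided by total and gene length by at most 1.91e-05 percent and were used for that check only. The gene length is that given in the deposited table. All gene identifiers were found in RefSeq, and 54 genes shared a name.

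Counts were analysed in R 4.3.3 with edgeR 4.0.16: filterByExpr on the 4 groups left 15351 genes, TMM scaled the libraries, and glmQLFit and glmQLFTest were fitted with a mean per group. The contrast averaged the groups with NCG and subtracted the average of those without it, and p-values were adjusted by Benjamini-Hochberg over all genes tested. The thresholds (adjusted p of 0.05, log2 fold change of 1) are those of the paper, which used DESeq2. The biological coefficient of variation was 0.269. Log2 levels used a prior count of 2, and a group was at the floor with at most 3 counts per library. DESeq2 1.42.0, limma 3.58.1 (voom) and other settings were run as alternatives, and the fit was tested on simulated data.

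The comparison, gene lists and genes were chosen with earlier results of these data known. The named genes are the 12 higher genes of smallest p, the lower genes, the 8 higher genes of largest change with full separation and at least 1 CPM, members of each list with the smallest p together with fixed genes of arginine, endothelin and PI3K signaling, and the 3 genes of largest interaction. NSMCE1, RICTOR, PRDX5, DHX38, ZNF697 and LOC102161418 were added after their values were seen, to complete small counts. LOC symbols were otherwise not named. The lists were written from general knowledge, apart from the spliceosome list of the deposited annotation and the ZNF list, and were not tested as sets. Some genes that this rule selects are not reported here.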

Additional observations from a re-analysis of the deposited data

Results flagged for a closer look

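In 8 of the 184 sets of 6 libraries examined for the 92 named genes, the highest or lowest library lay farther from its nearest neighbour than Dixon's 95% critical value allows, as a share of the whole range. For 6 values of 1 normal distribution, chance alone singles out about 1 in 20 sets. Each set here joins 3 libraries of each diet, so that rate may not hold. The distances were taken on the log2 of CPM plus 1. Above the others stood PCM1 in L + N replicate 2 at 165 CPM (the other libraries with NCG at 111 to 121 CPM), SLC12A1 in the same library at 2.39 CPM (0.791 to 1.03 CPM), CCDC39 in H − N replicate 3 at 2.55 CPM (0.564 to 0.971 CPM) and HRCT1 in L − N replicate 1 at 5.79 CPM (the others at most 2.38 CPM). Below the others stood ZNF280C in H + N replicate 2 at 34.1 CPM (37.6 to 39.8 CPM), RB1 in H − N replicate 1 at 32.0 CPM (36.5 to 39.5 CPM), ATAD5 in L − N replicate 1 at 3.76 CPM (6.01 to 7.15 CPM) and ARG2 in L − N replicate 3 at 14.9 CPM (21.2 to 24.8 CPM).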

How the results depend on the processing

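All 276 differentially expressed genes kept their direction under every alternative fit. Their number was 276 with RLE size factors, 264 without a filter, 355 in DESeq2, 286 in limma-voom, 222 in an additive fit and 214 with a gene length offset, 157 to 340 with 1 library left out, and 1116 by adjusted p alone (870 higher and 246 lower). The higher genes numbered 143 to 314 and the lower 7 to 33 with 1 library left out, and the lower numbered 49 in DESeq2, 12 in limma-voom and 13 in the additive fit. On the low-fiber diet 143 to 911 were called with 1 library left out, on the high-fiber diet 25 in DESeq2, and the interaction gave 298 genes in DESeq2 and 0 to 437 with 1 library left out. Same-numbered libraries did not deviate together (18 pairs, correlations −0.32 to 0.28, 3 above 0.1), and 3 of 12 libraries correlated best with their own number. With 3 libraries per group, this check cannot settle whether the numbers pair samples. The replicate block gave 241 genes (229 higher and 12 lower), and with the gene length offset 167 (159 and 8).

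Of 81 named genes past the threshold, 55 stayed past it without each library in turn. Genes far from the threshold changed sign. With 1 library left out, the log2 fold change of ASS1 ran from −0.544 to 0.0414, that of EDNRA from −0.177 to 0.0562 and that of ARG2 from −0.132 to 0.0357. With the gene length offset ARG2 had 0.0484, and 0.0526 with the replicate block as well. The cause was not tested. The GC content alternative was not run, since it needs gene sequences not used here. No alternative varied the depth.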
